A study of Mus musculus with 6 samples.

Results

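The snoRNA host genes described here are Gas5, Snhg1, Snhg3, Snhg5, Snhg6, Snhg8, Snhg12 and Snhg15, 8 genes chosen by name. Every ATAC-seq peak that overlapped the gene body or the 5000 bp on either side of it (mm10, GENCODE M21) was taken. These peaks merged into 19 regions, of 112852 regions in the whole series. All 8 genes had a promoter peak in every sample.

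Small nucleolar RNAs (snoRNAs) guide chemical modification of ribosomal RNA in the nucleolus. Box C/D snoRNAs direct methylation of the ribose, and box H/ACA snoRNAs direct the conversion of uridine to pseudouridine. In mammals most snoRNAs are cut out of introns of a host gene after splicing. The host transcripts described here carry no long open reading frame, several begin with a run of pyrimidines at the first base (a terminal oligopyrimidine start, shared with ribosomal protein genes), and the spliced RNA of Gas5 is a known substrate of nonsense-mediated decay.

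ATAC-seq, which maps open chromatin by the insertion of adapters with the Tn5 transposase, was carried out on LSCs, the leukemia stem cells of a murine MLL-AF9 model of acute myeloid leukemia (AML). The cells are L-GMP cells, labelled WT and blood-derived, taken from leukemia that arose after transplantation of progenitors carrying a retroviral MLL-AF9 transgene, and grown in medium with IL3. Untreated control LSCs (n = 3) were compared with LSCs given mycophenolate mofetil (MMF), an inhibitor of inosine monophosphate dehydrogenase in guanine nucleotide synthesis, for 24 h as the labels state, though the study's text also gives a shorter time (n = 3). Both groups carry the fusion, and the sources used here do not say whether the 3 samples of a group were separate cultures or animals, so that p-values measure the spread between these samples only.

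The control lists held between 58496 and 63911 peaks and the MMF lists between 80893 and 86556. Depth was read from the lowest background of a list, the reads that 150 bp of genome would hold by chance, which lay between 0.620 and 0.729 in control and between 0.676 and 0.909 in MMF samples. Among marker genes, 5 of 9 genes of myeloid progenitors and MLL-AF9 leukemia (Spi1, Cebpa, Kit, Meis1 and Hoxa9) had a promoter peak in all 6 lists, and Mpo, which encodes myeloperoxidase, had one in none. None of 4 T cell genes had a promoter peak in any list. Ebf1 of 4 B cell genes and Klf1 of 4 erythroid genes had one in all 6, and none of 4 genes foreign to blood did.

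Each member was located on GRCm38 by its GENCODE gene. Gas5 (ENSMUSG00000053332.13) lies on chromosome 1 from 161034422 to 161038539 on the plus strand. Snhg1 (ENSMUSG00000108414.1) lies on chromosome 19 from 8723475 to 8726443, also on the plus strand. Snhg3 (ENSMUSG00000085241.7) and Snhg12 (ENSMUSG00000086290.9) are near each other on chromosome 4, Snhg3 from 132348014 to 132353686 on the minus strand and Snhg12 from 132308623 to 132311024 on the plus strand. The others are on the minus strand, Snhg5 (ENSMUSG00000097195.9) on chromosome 9 from 88521050 to 88522929, Snhg6 (ENSMUSG00000098234.7) on chromosome 1 from 9941959 to 9944118, Snhg8 (ENSMUSG00000104960.1) on chromosome 3 from 123507552 to 123508404, and Snhg15 (ENSMUSG00000085156.7) on chromosome 11 from 6525591 to 6528760. Gene bodies ran from 853 bp (Snhg8) to 5673 bp (Snhg3), and together they held 28 genes of the annotated type snoRNA, 9 in Gas5 (one of them, Mir5117, named as a microRNA), 8 in Snhg1, 4 in Snhg12, 2 each in Snhg3 and Snhg5 and 1 each in Snhg6, Snhg8 and Snhg15.

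The letters at the start sites are shown because terminal pyrimidines and a TATA-like box are what the starts of snoRNA hosts are known for. RefSeq promoters (GRCm38.p6) were matched for 7 of the 8 members, all but Snhg6. Each line reads 5′ to 3′ on the gene's strand and covers 80 bases, 50 before the annotated start and 30 from the start on. Capitals mark, within 10 bases of the start, the C nearest to it that at least 4 pyrimidines follow, with those pyrimidines, and TATANA (N is any base) between 40 and 20 bases before it.
Gas5 (chr1:161035116-161035195, plus): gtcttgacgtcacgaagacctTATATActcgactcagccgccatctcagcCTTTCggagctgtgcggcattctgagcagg
Snhg1 (chr19:8723437-8723516, plus): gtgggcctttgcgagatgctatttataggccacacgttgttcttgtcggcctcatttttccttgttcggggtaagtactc
Snhg3 (chr4:132353657-132353736, minus): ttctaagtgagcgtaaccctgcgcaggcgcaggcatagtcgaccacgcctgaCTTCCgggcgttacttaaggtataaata
Snhg5 (chr9:88522868-88522947, minus): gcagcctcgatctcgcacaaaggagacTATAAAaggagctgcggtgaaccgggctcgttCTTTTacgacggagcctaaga
Snhg8 (chr3:123508307-123508386, minus): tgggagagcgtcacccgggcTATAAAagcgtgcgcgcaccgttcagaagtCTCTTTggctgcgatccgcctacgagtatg
Snhg12 (chr4:132308628-132308707, plus): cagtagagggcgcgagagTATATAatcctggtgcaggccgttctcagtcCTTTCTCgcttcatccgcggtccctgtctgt
Snhg15 (chr11:6528731-6528810, minus): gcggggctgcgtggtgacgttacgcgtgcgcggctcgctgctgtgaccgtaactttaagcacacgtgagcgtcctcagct

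The pyrimidine run was found in 5 of the 7 promoters (Gas5, Snhg3, Snhg5, Snhg8 and Snhg12) and in 30.7% of the 32851 RefSeq promoters. The marked C is the annotated start itself in Gas5 and Snhg8, and lies 9 bases after it in Snhg5. In Gas5 and Snhg12 the pyrimidines go on before the marked C. In Snhg3 the run overlaps a CCGGAAG read on the other strand. TATANA on the sense strand, searched after the letters had been read, stood 29 bases before the start of Gas5, 23 before that of Snhg5, 30 before that of Snhg8 and 32 before that of Snhg12, so in 4 of 7, against 3.1% of all promoters. Other motifs were searched on both strands of the 300 bases from 250 before to 50 after the start. GGGCGG, bound by SP and KLF factors, was found in 5 of 7 (35.7% of all promoters). TATAAA was found in 4 of 7 (13.6% of all), and in Snhg5 and Snhg8 it is the match in capitals. In Snhg1 it is on the other strand, 29 bases before the start, and in Snhg3 it lies 22 bases past the start. The CCAAT box was in 3 of 7 (37.4% of all). CCGGAAG, an ETS motif, was in Snhg3 only (8.9% of all) and the E-box CACGTG in Snhg15 only (7.2% of all). GCGCATG (NRF1) and AAGATGG (YY1) were found in none of the 7, against 3.9% and 6.3% of all promoters. Matches are descriptions of the letters and not of binding.

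Of the 19 regions, 13 had a peak in all 6 lists, namely the 8 promoter regions and 5 others. Another 4 were in 2 to 5 lists and 2 in 1 list only. None was gained with MMF, that is, held by all 3 MMF lists and no control list, against 6% of all regions. None was lost in the opposite sense, against 0.182% of all regions. The windows held 16, 18 and 15 peaks in control and 16, 17 and 16 in MMF samples, with a mean of 16.3 ± 1.53 against 16.3 ± 0.577 (SD, n = 3 each; exact permutation test, two-sided, p = 1). The MMF lists were longer over the whole genome, but these windows held as many peaks in control as in MMF samples on average. The peaks covered 7343, 8182 and 7375 bp of the windows in control and 8187, 8241 and 8006 bp in MMF samples (exact permutation test, two-sided, p = 0.2).

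**Figure D1:**
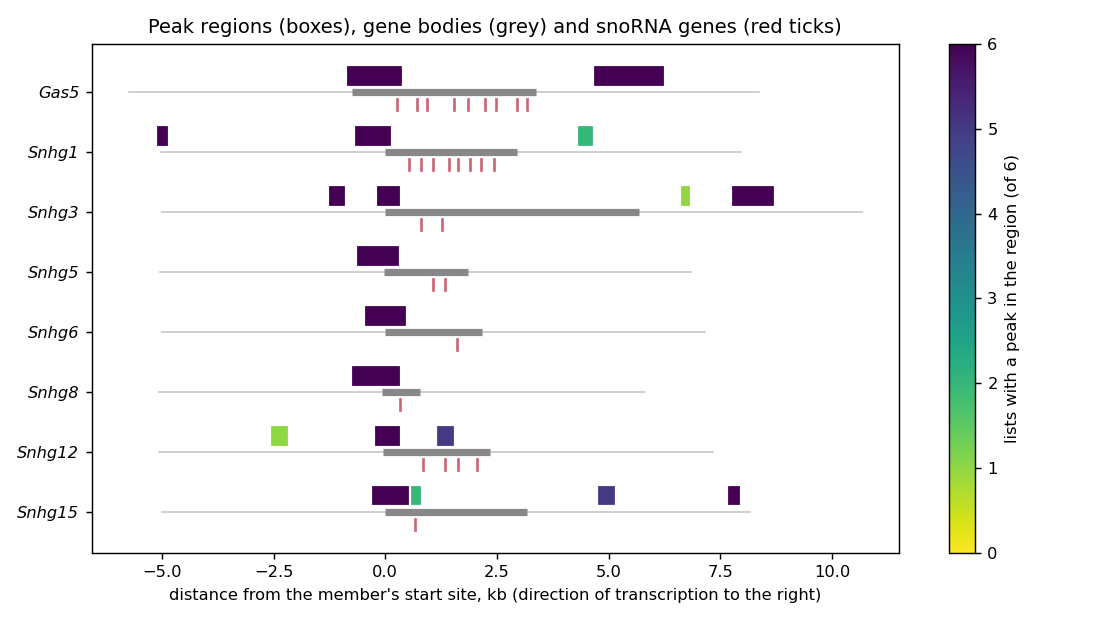
Regions with a peak (boxes, coloured by the number of the 6 lists that hold one) around the start site of each member, on an axis of distance in kb with transcription to the right; grey bars are gene bodies, thin lines the windows and red ticks snoRNA genes. Each member has 1 promoter region held by all 6 lists, and most of the 28 snoRNA genes lie outside any region.

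The promoter regions lay at or just before the start, as the map of regions shows. The start is that of RefSeq, or of GENCODE for Snhg6. Gas5 has 2 RefSeq starts, and the one nearest to its summit (161035166) was used, so that its distance is partly set by that choice. The median summit was 91 bp before the start in Gas5, 172 in Snhg1, 124 in Snhg5, 46.5 in Snhg6, 111.5 in Snhg8, 62.5 in Snhg12 and 83 in Snhg15, and 7 bp past it in Snhg3. The summit kept its place between samples in Snhg1 (169 to 181 bp before the start), Snhg5 (123 to 132 bp), Snhg12 (54 to 67 bp) and Snhg15 (71 to 88 bp). It moved more in Gas5 (48 to 150 bp), Snhg8 (57 to 179 bp) and Snhg6 (24 to 65 bp), and in Snhg3 it lay anywhere from 9 bp before to 52 bp past the start. Promoter peaks were between 286 and 1049 bp wide, the widest in Gas5 and Snhg8. Of the 28 snoRNA genes, 24 were under no region. Gm26224 in Gas5 and Snora24 in Snhg8 lie under the promoter region of their host, Snora44 in Snhg12 under a region held by 5 lists, and Snora9 in Snhg15 under a region held by 2 lists.

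Some of these peaks are shared with neighbours. Gas5 faces Zbtb37, a zinc finger gene on the other strand whose nearest start is 317 bp upstream under the same region. Snhg1 faces Slc3a2, which encodes the heavy chain of an amino acid transporter, 118 bp upstream, and its median summit falls in the untranslated part of an Slc3a2 exon. ATAC-seq has no strand, so that the signal there cannot be given to either gene.

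Promoter peak height is given as the reads over the summit divided by the lowest background of the sample, which scales it to depth. By limma over the 15277 genes with a promoter peak in all 6 lists, no member passed an adjusted p of 0.05 in either direction, against 2.81% of all genes called higher and 0.884% called lower. For 7 of the 8 members the log2 difference was below 0, against 65.1% of all genes, but for 6 with each sample centred on its median and for 2 by the fold enrichment of the lists. The groups did not overlap, with MMF lower, in 3 of 8 (Gas5, Snhg5 and Snhg12), against 17.2% of all genes, and in none with MMF higher, against 8.3%. The median log2 difference, MMF minus control, was -0.22 over the members and -0.09 over all genes. At an unadjusted p under 0.05, 1 of 8 members stood, Snhg12, against 18.7% of all genes.

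Snhg12, host of 3 H/ACA snoRNAs and of the C/D snoRNA Snord99, had the lowest promoter and the largest difference of the members. Control samples gave heights of 63.1, 76.7 and 66.1, and MMF samples 49.5, 53.8 and 45.8, so that the groups did not overlap. The log2 difference was -0.46 (95% interval -0.77 to -0.16), with an adjusted p of 0.102 by limma. The summits behind these values held 46, 53 and 41 reads in control and 45, 38 and 31 in MMF samples.

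Gas5, whose RNA accumulates in growth-arrested cells, was at 163.3, 140.3 and 137.1 in control and 119.9, 127.5 and 112.3 in MMF samples. The highest MMF value was below the lowest control value, and the mean was 147 ± 14.3 against 119.9 ± 7.57 (SD, n = 3 each). The log2 difference was -0.29 (95% interval -0.585 to 0.005, adjusted p = 0.274 by limma).

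Snhg5, host of Snord50a and Snord50b, was at 145.4, 147.5 and 159.7 in control and 134.2, 127.5 and 139 in MMF samples, also without overlap. The difference was smaller than in Gas5, -0.18 on the log2 scale (95% interval -0.45 to 0.10, adjusted p = 0.461 by limma).

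The groups overlapped in the other 5 members. Snhg3, host of the H/ACA RNAs Snora73a and Snora73b, had a mean of 86.5 ± 4.17 in control and 72.8 ± 9.40 in MMF samples. Snhg6, host of Snord87, had 90.0 ± 11.6 against 72.3 ± 11.4, and Snhg8, host of Snora24, 138 ± 12.9 against 127 ± 6.73 (SD, n = 3 each). Their log2 differences were -0.26, -0.32 and -0.12. In Snhg1, which hosts the largest number of snoRNAs after Gas5, the means were 159 ± 7.73 and 158 ± 16.9, and in Snhg15, host of Snora9, 105 ± 7.17 and 105 ± 8.59. The 95% interval of the log2 difference, not adjusted for the number of genes, was -0.31 to 0.29 for Snhg1 and -0.29 to 0.29 for Snhg15. With 3 samples a group, differences within those bounds are therefore not excluded.

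**Figure D2:**
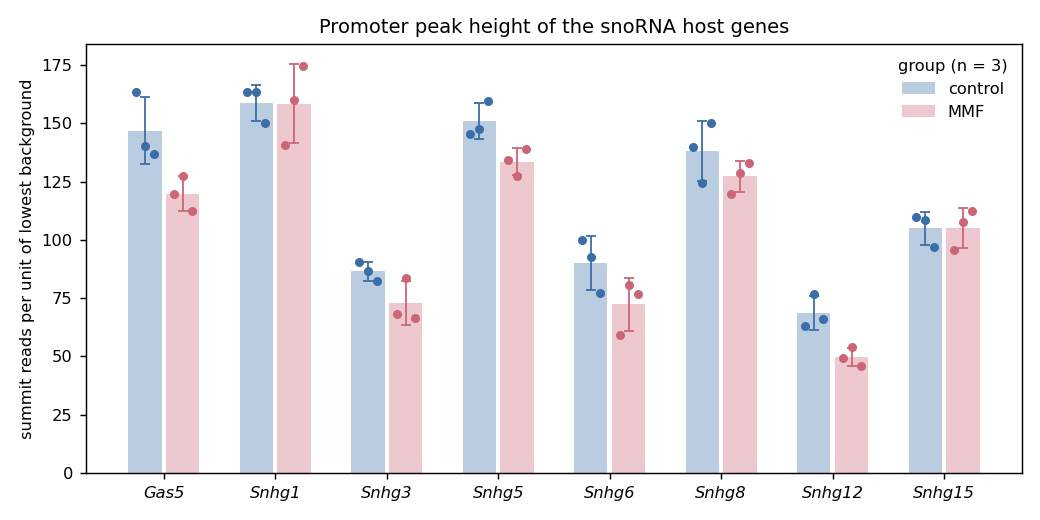
Promoter peak height of the 8 members, in summit reads per unit of lowest background; points are samples, bars means and error bars SD (n = 3 each). The points of the groups separate for Gas5, Snhg5 and Snhg12, while the bars of Snhg1 and of Snhg15 are level.

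In control samples the members fell into a high and a low set by height, with Snhg12 apart below both. The order was Snhg1, Snhg5, Gas5 and Snhg8, which overlapped neighbour with neighbour and all stood above the rest, then Snhg15, Snhg6 and Snhg3, which overlapped likewise, and last Snhg12, which did not overlap Snhg3. In MMF samples Snhg1 stood apart at the top, followed by Snhg5, Snhg8, Gas5 and Snhg15, which overlapped neighbour with neighbour, then Snhg3 and Snhg6 with overlap, and Snhg12 apart at the bottom. Over all 6 samples the mean height of Snhg1 was above that of 95.5% of genes tested, that of Snhg5 above 91.5%, Gas5 88.1%, Snhg8 87.9%, Snhg15 74.1%, Snhg6 57.4%, Snhg3 56.4% and Snhg12 39.7%.

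The fold enrichment of the lists gave another picture, because it divides the summit by a local background. Ranked by it within each list, the promoter peaks of the members stood between the 65.3rd and the 94.0th percentile. The mean rank was higher with MMF in 4 members and lower in 4, with a median difference of 0.42 percentile points over the members and -0.15 over all genes. These ranks come from lists of unequal length. With every list cut to the length of the shortest, 6 members were lower and 2 higher, with a median of -4.61 over the members and -5.28 over all genes. The ranks of Snhg1 were 82.9, 81.9 and 78.6 in control and 85.9, 88.8 and 93.4 in MMF samples, without overlap. By the exact two-sided permutation test p was 0.1, below which 3 against 3 cannot go. That made 1 of 8 higher without overlap, against 9.71% of all genes, and none lower, against 9.21%. At equal list length the groups overlapped in Snhg1, with a difference of 4.29 points. Snhg12, at -17.4 points, was then the 1 member without overlap, beside a median of -5.28 points over all genes. The share of all genes without overlap was not taken at that length, so this count has no background beside it. Gas5 had a mean rank of 80.1 ± 5.08 in control and 86.3 ± 1.19 in MMF samples, a difference of 6.15 points that was 0.930 at equal list length and 0.857 with ranking by p.

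The difference between these measures is the local background. It is the number of reads that MACS2 expected at the peak from a wider stretch around it, the peak included, and was divided here by the lowest background of the sample, so that 1 is the genome-wide level. This measure was examined after the ranks and heights had been seen. It was lower with MMF in 8 of 8 members without overlap of the groups (and below 0 in all 8 with median centring), against 27.4% of all genes tested, and against 39.1% of the 7270 genes whose mean local background was no lower than that of the lowest member. By limma 4 of 8 members fell at an adjusted p of 0.05 (Gas5, Snhg1, Snhg3 and Snhg5), against 12% of all genes and 18.3% of those 7270 genes. The median log2 difference was -0.31 over the members, -0.10 over the 7270 genes and -0.06 over all genes. Local background over all genes was called lower in 1834 and higher in 1011. With each sample centred on its median it was called lower in 1185 and higher in 1470, and then Gas5, Snhg1, Snhg3 and Snhg12 passed, 4 of 8 against 7.76% of all genes.

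Gas5 showed the largest fall. Control samples had a local background of 10.95, 11.04 and 11.34, and MMF samples 7.64, 7.78 and 7.23. The replicates of a group lay close together and the groups far apart, with a fall of 32.1% in the mean and a log2 difference of -0.56 (95% interval -0.66 to -0.45, adjusted p = 0.00276 by limma).

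Snhg1 fell by 20.2%, from 11.81, 11.98 and 11.85 in control to 9.02, 9.77 and 9.65 in MMF samples. The log2 difference was -0.33 (95% interval -0.43 to -0.22, adjusted p = 0.00944 by limma). Its promoter height was level over the same samples, so the peak stood out more from its surroundings.

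Snhg3 had the tightest replicates, at 6.15, 6.18 and 6.26 in control and 5.05, 5.12 and 5.06 in MMF samples. It fell by 18.1%, a log2 difference of -0.29 (95% interval -0.36 to -0.21, adjusted p = 0.00577 by limma).

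Snhg5 was at 7.88, 7.98 and 8.56 in control and 7.03, 7.2 and 7.25 in MMF samples, a fall of 12.1% with an adjusted p of 0.0431 by limma. This call was the weakest of the 4 and was lost with median centring (log2 difference -0.14) and on leaving out any of the 6 samples. Gas5, Snhg1 and Snhg3 kept an adjusted p under 0.05 in every one of those fits.

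The other 4 members did not pass the adjusted threshold, though no groups overlapped and each had an unadjusted p under 0.05, as 24.6% of all genes did with MMF lower. Snhg12 was at 5.45, 4.95 and 4.84 in control and 3.38, 4.33 and 3.9 in MMF samples (adjusted p = 0.0523 by limma). Snhg6 was at 4.94, 4.51 and 4.64 against 3.18, 4.27 and 3.66 (adjusted p = 0.085). These 2 genes had differences of -0.40 and -0.35 on the log2 scale, larger than that of Snhg1, with wider spread between MMF samples. Snhg8 was at 9.24, 8.76 and 8.76 against 7.56, 8.1 and 8.2, and Snhg15 at 9.49, 9.13 and 9.17 against 7.79, 8.46 and 8.89, log2 differences of -0.17 and -0.15.

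**Figure D3:**
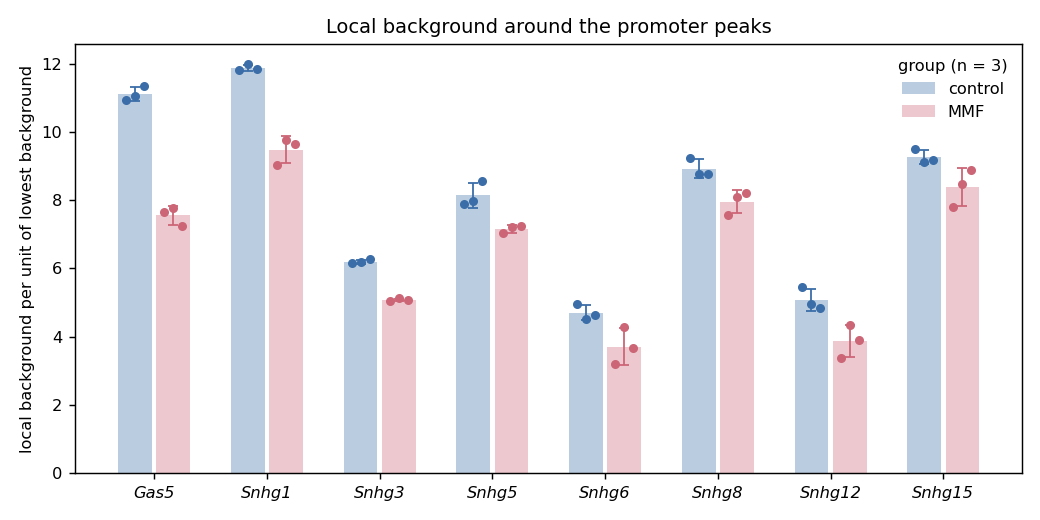
Local background around the promoter peak of each member, per unit of the lowest background of the sample; points are samples, bars means and error bars SD (n = 3 each). All 3 MMF points lie below all 3 control points in each of the 8 genes, by the largest margin in Gas5.

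**Figure D4:**
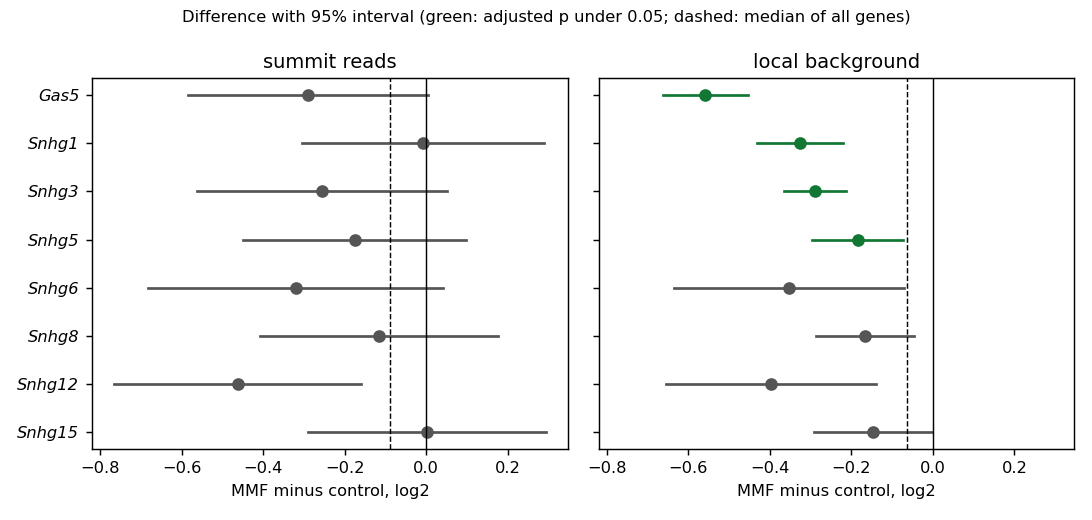
Log2 difference, MMF minus control, with its 95% interval for promoter height (left) and local background (right); green marks an adjusted p under 0.05 by limma and the dashed line the median of all genes. No member is green on the left, and Gas5, Snhg1, Snhg3 and Snhg5 are on the right.

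The 5 other regions held by all 6 lists had the same order of groups in local background. Downstream of Gas5, a region on chromosome 1 from 161039855 to 161041387 over the start of the antisense gene Gm37634 had 10.0 ± 1.54 in control and 7.18 ± 0.652 in MMF samples. An intron of Slc3a2, 4977 bp before the start of Snhg1, held a narrow region on chromosome 19 from 8718408 to 8718604 with 11.0 ± 0.183 against 10.0 ± 0.241. A promoter of Rcc1, the nucleotide exchange factor of Ran, past the end of Snhg3 on chromosome 4 from 132345013 to 132345895, had 6.99 ± 0.093 against 5.40 ± 0.133. A region 1046 bp before the start of Snhg3, from 132354602 to 132354929, had 5.54 ± 0.199 against 4.68 ± 0.078. The promoter of Myo1g, which encodes a myosin of blood cells, downstream of Snhg15 on chromosome 11 from 6520834 to 6521068, had 5.98 ± 0.263 against 5.02 ± 0.104 (SD, n = 3 each). With the promoters that made 13 of 13 regions lower without overlap, against 13.3% of all regions in the 6 lists. Of these 13, 8 are the promoter regions already counted, for which the like share was 27.4% of gene promoters. Regions of a window share their surroundings, and these are not independent values.

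Peak height in these 5 regions was less uniform. The Rcc1 promoter was at 101.5, 86.8 and 72.6 in control and 67.1, 63.7 and 66.5 in MMF samples, without overlap. In the other 4 the groups overlapped, for example 53.4 ± 9.61 against 54.1 ± 3.90 in the Slc3a2 intron and 33.2 ± 4.31 against 32.2 ± 4.74 at Myo1g (SD, n = 3 each). By limma on the ranks, 0 of the 13 regions passed an adjusted p of 0.05, against 1.87% of the 41182 regions held by all 6 lists. The smallest adjusted p was 0.214, at the promoter region of Snhg12, the 1 of 13 with an unadjusted p under 0.05, against 23.2% of all such regions.

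The 6 regions held by part of the lists were weak by fold enrichment, with percentile ranks between 0.1 and 22.0 where found. The region over Snora44 in Snhg12 (chromosome 4 from 132309858 to 132310189) was found in 2 control and 3 MMF lists with 14 to 18 reads at the summit. A region between Snhg15 and Myo1g (chromosome 11 from 6523636 to 6523986) was also found in 2 control and 3 MMF lists, with 21 to 35 reads. The region over Snora9 was in 1 control and 1 MMF list, as was a region 4477 bp past the start of Snhg1. The remaining 2 were found once, in an Rcc1 intron in a control list and 2448 bp before the start of Snhg12 in an MMF list. For peaks of such low rank, absence from a list does not show that a site was closed.

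Of 30 other snoRNA host genes, 25 had a promoter peak in all 6 lists. Of the remaining 5, 3 were not matched in the annotation used here, and Snhg14 and Snhg18 had a promoter peak in only 2 lists and 1 list. Peak height called 0 of the 25 in either direction, against 2.81% of all genes higher and 0.884% lower. It was lower by mean in 22, against 65.1% of all genes, with a median log2 difference of -0.21. The extremes were Rack1, a ribosome-bound scaffold protein, at -0.44 and Snhg20 at 0.09. Local background, in contrast, fell in 14 of the 25 by limma at an adjusted p of 0.05 and rose in none, with a median of -0.28. Over all genes 12% were called lower and 6.62% higher. Among the 7270 genes with a mean local background no lower than that of the lowest member, 18.3% were called lower. With the replicate number as a block 6 of the 25 were called, and 526 of all 15277 genes were called lower. The largest fall was that of Nop56, a core box C/D protein and itself a host, from 11.7 ± 0.497 to 6.82 ± 0.335 (SD, n = 3 each), -0.78 on the log2 scale with an adjusted p of 0.00263. Ncl (nucleolin, -0.48), Hspa8 (a heat shock cognate chaperone, -0.43), Eif4a1 (an initiation factor helicase, -0.43) and the ribosomal protein genes Rpl3 (-0.56), Rpl13a (-0.33) and Rps3 (-0.32) fell as well, as did Snhg9 (-0.35). These genes were picked for naming after their values were seen. Snhg10 had the highest value, 0.08, with overlap of the groups. Most of the hosts that passed encode proteins. Of the tested hosts named Snhg, only Snhg9 passed, and Snhg10, Snhg11 (-0.06), Snhg17 (-0.05) and Snhg20 (-0.09) did not. Epb41l4aos (-0.26) passed, while Zfas1 (-0.25), Dancr (-0.19) and 1110038B12Rik (-0.28) did not.

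Among the proteins that work on snoRNAs, peak height (2.81% of all genes called higher and 0.884% lower) called 0 of 10 box C/D genes (median -0.20, from Snu13 at -0.53 to Pih1d1 at -0.09) and 0 of 6 H/ACA genes (median -0.06, from Gar1 at -0.31 to Naf1 at 0.12). Local background (12% of all genes called lower and 6.62% higher) fell in 4 of the 10 box C/D genes, the 4 core proteins of the particle. These were Nop56, Fbl (fibrillarin, the methyltransferase, -0.32, adjusted p = 0.0399 by limma), Nop58 (-0.39, adjusted p = 0.0313) and Snu13 (-0.47, adjusted p = 0.0235). How many genes of this list passed under the alternatives was not counted. The assembly factors of the list did not pass the threshold, and Znhit6 had the highest value, 0.21. None of the 6 H/ACA genes passed, with values from -0.20 (Gar1) to 0.08 (Naf1). The list medians were nearly the same, -0.183 for the box C/D genes and -0.185 for the H/ACA genes. None of 10 genes of nonsense-mediated decay passed by either measure; their medians were -0.10 for height and -0.09 for local background (from Upf3a at -0.20 to Smg9 at 0.11). Differences between these lists were not tested.

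A wider list, the genes that GENCODE tags as hosts of a small RNA, was set beside these after the files had been seen. Of 1695 such genes other than the members, 1117 were tested. Local background was called lower in 173 (15.5%, against 12% of all genes) and higher in 57 (5.1%, against 6.62%), with a median of -0.10. Peak height was called higher in 14 (1.25%, against 2.81%) and lower in 6 (0.537%, against 0.884%), with a median of -0.12. The medians of that broad group were nearer to those of all genes than the medians of the members were.

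**Figure D5:**
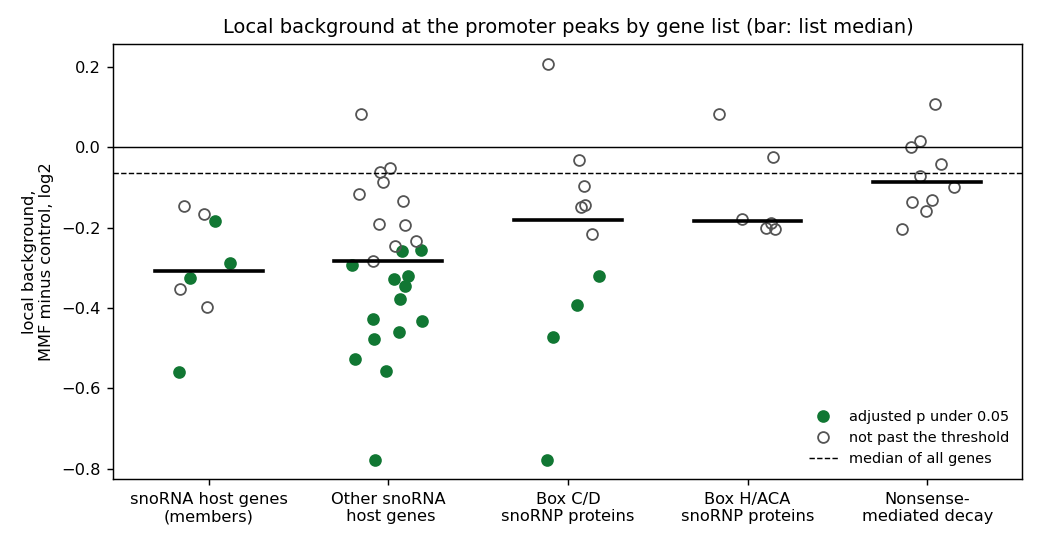
Log2 difference in local background, MMF minus control, for each tested gene of the members and of 4 other lists; green marks an adjusted p under 0.05 by limma, bars list medians and the dashed line the median of all genes. The members and the other snoRNA hosts centre near -0.3, and the nonsense-mediated decay genes, with no green point, near the dashed line.

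For each member, the gene whose 6 promoter ranks were nearest was named, by the root mean square difference over the 6 lists. These were Reep4 for Gas5 (1.60 percentile points), Gm12454 for Snhg1 (1.68), Sdhaf2 for Snhg3 (1.66), Sub1 for Snhg5 (0.728), Spindoc for Snhg6 (0.83), Trip11 for Snhg8 (1.08), Ajuba for Snhg12 (2.24) and Inpp1 for Snhg15 (1.58). The pattern of Snhg12 had the most distant nearest gene and that of Snhg5 the closest.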

How the data were processed

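Sequencing reads were processed by the authors, whose notes name FastQC, Trim Galore, Bowtie2, MACS2 and mm10, with no versions and no MACS2 options given in the sources used here. Peaks were called on each sample alone. In the deposited lists the fold enrichment is a ratio of summit reads to local background, and p and q are −log10 values. From these, whole summit reads and the background were solved as (reads + 1) / (background + 1), for chromosomes 1 to 19, X and Y. Lists were merged into regions, and a promoter spanned 1000 bp each way from any GENCODE M21 basic start, with its peak of highest fold enrichment. Heights and local backgrounds (log2) and normal scores of ranks were fitted with limma 3.58.1 in R 4.3.3 over all features, without a block, at a Benjamini-Hochberg adjusted p of 0.05. No pseudocount was needed. Steps were tested on simulated data.

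The members and lists were chosen with earlier results of these data known. Local background, the TATANA search and the wide host list were added after values were seen. Named genes were the members, genes with a start in their windows, the extremes of each list and the nearest pattern; other hosts and box C/D genes were named after their values were seen. Alternatives were median centring, 500 bp promoters, equal list length, a stricter q, ranking by p, fold enrichment, the overlap required, each sample left out and the replicate number as a block. No lists shared over 681 identical intervals. Intervals cover the spread between samples. Scripts used Python 3.11.15, pandas 2.3.3 and scipy 1.17.1. The paper's PePr analysis of the reads was not repeated here.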

Additional observations from a re-analysis of the deposited data

How the results depend on the processing

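No alternative called a region or promoter of the members by rank or by height, or a gained or lost region, with the replicate block (0 by rank, 0 by height) and the fits without each sample included. By rank, the block called none of all 41182 regions and the fits without each sample at most 12. Those zeros by rank therefore say little about the members. Samples of the same number deviated together with correlations of 0.002 to 0.028 in ranks and heights, too small to pair them by those measures. Pairing was not examined for local background. With the replicate block, local background called 3 members in place of 4 and 6 of the other hosts in place of 14. Without each sample it called 3 to 5 members and 10 to 12 other hosts. Over all 15277 genes it called 526 lower with the block, 1834 in the main fit and 827 to 1065 without each sample. The local background difference of Naf1 ranged from -0.025 to 0.163 without each sample.

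Height was below 0 in 7 members, in 6 to 8 without each sample and in 2 by fold enrichment, which divides by the local background. By that measure the log2 difference was 0.21 for Gas5, 0.30 for Snhg1, 0.007 for Snhg3, 0.004 for Snhg5 and 0.05 for Snhg8. Snhg1 stood at 0.062 with median centring. Without each sample, height ranged from -0.081 to 0.074 for Snhg1, from -0.056 to 0.069 for Snhg15 and from -0.11 to 0.27 for Snhg20. The ranks of 1 member did not overlap. That number was 3 with ranking by p (Snhg1 and Snhg15 higher, Snhg12 lower) and 1 to 3 without each sample. The share of all genes without overlap was not taken under these settings, so these counts have no background beside them. With equal list length the rank differences of Snhg8 (0.999) and Snhg15 (4.05) turned to -4.05 and -5.41, and those of the other 6 members were lower as well, down to -17.4 for Snhg12. That of Snhg5 turned from -0.16 to 0.288 with ranking by p. Snhg3 had no promoter peak in 1 list with 500 bp promoters and so no value. Without each sample they ranged from -3.84 to 0.847 for Snhg3, from -0.961 to 0.909 for Snhg5, from -3.49 to 1.10 for Snhg6 and from -0.934 to 3.06 for Snhg8. The causes were not tested.

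Over all regions the rank test called 594 higher and 175 lower, 972 and 389 with equal list length, none with the replicate block (8973 at an unadjusted p under 0.05) and at most 12 without each sample. The median summit of a list held 14 to 19 reads, and the promoter summits of the members 31 to 128.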
